A study of Homo sapiens with 12 samples.

Results

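S100 proteins and annexins, families of calcium-binding proteins that act at membranes and on the cytoskeleton, were followed in SW13 cells with and without BRG1. The 10 genes S100A2, S100A4, S100A6, S100A10, S100A11, S100A13, S100A16, ANXA1, ANXA2 and ANXA10 were selected by symbol through the array's annotation, out of 19775 genes that have a probe set of their own. They were picked with their levels in these cells already known, so their difference between the cell lines is given below as a description without a test. SW13 is a human adrenal cortical carcinoma line that lacks BRG1 protein, the ATPase of SWI/SNF chromatin remodeling complexes. It carried either the empty plasmid pREP7 (SW13+vector) or pREP7 with BRG1 (SW13+BRG1), was grown in DMEM with 10% fetal bovine serum, and received either a mock treatment or a UV dose of 10 J/m2, with RNA taken 6 h later. Each of the 4 groups has 3 Affymetrix U133 Plus 2.0 arrays, numbered by experiment. The lines are named as labelled. The signals of SMARCA4, the gene of BRG1, go against these labels on its brightest probe set but with them on another after UV. A single stable line stands for each condition, so an effect of BRG1 and other differences between these lines cannot be told apart, and p-values measure the spread between the arrays.

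S100 proteins are small EF-hand proteins that mostly work as dimers. When calcium binds, they open a surface through which they hold target proteins. Annexins bind acidic phospholipids of membranes in the presence of calcium and link them to actin, to vesicles and to each other. Both families meet in shared complexes, since S100A10 holds ANXA2 and S100A11 holds ANXA1 by its N-terminal tail. Most S100 genes lie side by side on the long arm of chromosome 1, whereas the annexin genes are spread over the genome.

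The 5 members whose signals differed most between the mock-treated lines have quite different promoters. These are shown because 1 of them, that of S100A2, was the target of a BRG1 chromatin immunoprecipitation that the study made in cells other than SW13. The sequences are RefSeq promoters of build GRCh38.p14, each from 250 bases before to 50 bases after a transcription start, written 5′ to 3′ on the strand of the gene, with every CG dinucleotide, the site of DNA methylation, in capitals. The S100A2 window is chr1:153565795-153566094 on the minus strand, that of S100A16 chr1:153613088-153613387 on the minus strand, that of S100A10 chr1:151993810-151994109 on the minus strand, that of ANXA10 chr4:168092287-168092586 on the plus strand and that of ANXA1 chr9:73151615-73151914 on the plus strand.
S100A2: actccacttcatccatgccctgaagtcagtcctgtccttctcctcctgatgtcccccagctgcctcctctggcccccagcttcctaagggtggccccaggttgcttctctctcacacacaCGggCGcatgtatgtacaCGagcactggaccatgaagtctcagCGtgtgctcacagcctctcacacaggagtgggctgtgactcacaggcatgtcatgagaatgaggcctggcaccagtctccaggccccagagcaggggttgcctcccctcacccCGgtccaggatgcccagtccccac
S100A16: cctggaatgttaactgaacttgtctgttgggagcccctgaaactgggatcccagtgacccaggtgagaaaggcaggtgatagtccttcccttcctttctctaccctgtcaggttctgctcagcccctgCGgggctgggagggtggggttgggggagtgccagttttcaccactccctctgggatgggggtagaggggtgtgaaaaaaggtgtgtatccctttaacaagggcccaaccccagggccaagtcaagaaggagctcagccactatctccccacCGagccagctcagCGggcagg
S100A10: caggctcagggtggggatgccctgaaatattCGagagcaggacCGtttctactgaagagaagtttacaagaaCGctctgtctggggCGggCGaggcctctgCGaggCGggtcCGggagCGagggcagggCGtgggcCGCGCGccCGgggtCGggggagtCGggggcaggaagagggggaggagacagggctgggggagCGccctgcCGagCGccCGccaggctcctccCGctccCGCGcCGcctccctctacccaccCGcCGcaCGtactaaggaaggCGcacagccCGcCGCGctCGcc
ANXA10: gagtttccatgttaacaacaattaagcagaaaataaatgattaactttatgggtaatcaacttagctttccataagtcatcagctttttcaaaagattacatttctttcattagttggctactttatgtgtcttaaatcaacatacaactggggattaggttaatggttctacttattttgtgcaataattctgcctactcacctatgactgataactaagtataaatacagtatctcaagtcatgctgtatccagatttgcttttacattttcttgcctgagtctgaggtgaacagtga
ANXA1: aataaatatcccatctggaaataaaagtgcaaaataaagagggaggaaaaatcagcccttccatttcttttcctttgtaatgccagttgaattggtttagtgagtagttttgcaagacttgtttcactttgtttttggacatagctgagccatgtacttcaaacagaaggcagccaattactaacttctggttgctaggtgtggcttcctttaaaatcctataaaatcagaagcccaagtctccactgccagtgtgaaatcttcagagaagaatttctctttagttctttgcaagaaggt

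The S100A10 window held 32 CG dinucleotides, the S100A2 window 5 and the S100A16 window 3, and those of ANXA10 and ANXA1 held 0. RefSeq gives S100A2 and S100A16 a second window each, further downstream, with 4 and 8 CG, and the upstream one is printed. Over 35116 promoter windows of this length the median was 14, and S100A10 stood at the 82.0th percentile, S100A2 at the 31.7th and S100A16 at the 21.3rd. The 4 genes that were brighter in SW13+BRG1 cells thus included both a CG-rich promoter and promoters with few or no CG. The forward primer of the immunoprecipitation, tgtcatgagaatgaggcct, matched the printed S100A2 window at bases 212 to 230, which is 39 to 21 bases upstream of the start, and the reverse primer did not match in this window. Of the members not printed, ANXA2 has 32 CG in its window, S100A6 has 31 and S100A11 has 22. The core of the AP-1 motif, TGANTCA, reads the same on both strands and was found in 2 of the 14 windows of the members. These were the windows of S100A2, as TGACTCA from base 199, and of ANXA2, as TGAGTCA from base 124, which is 14.3% of the members' windows against 7.71% of all windows.

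The members have 17 probe sets of their own, of which 13 passed a filter that asks for a signal at or above the array's median in at least 3 of the 12 arrays. A further probe set is shared by ANXA2 and another gene and was left out. The brightest probe set of a gene stands for it, and 8 members are tested in this way, while S100A6 and S100A11 did not pass. Signals are MAS signals on a linear scale, and the median of an array was 21.04 to 25.3. ANXA10 passed the filter only through the arrays of SW13+BRG1 cells.

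**Figure D1:**
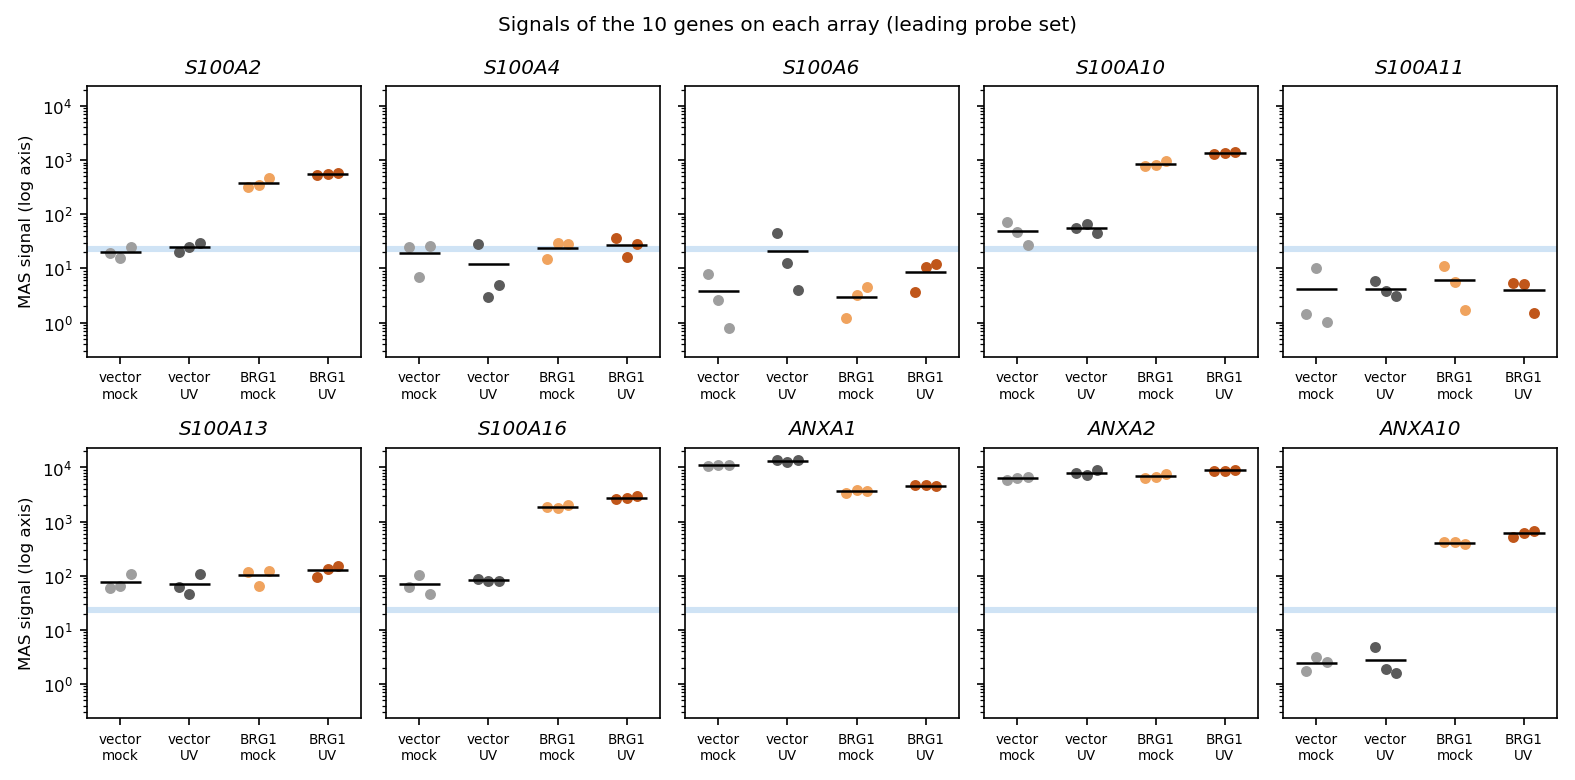
MAS signal on a logarithmic axis for the brightest probe set of each of the 10 genes, with 1 point for each array, a line at the mean of 3 arrays and a blue band for the range of array medians (21.04 to 25.3). S100A2, S100A10, S100A16 and ANXA10 sit higher on all 6 arrays of SW13+BRG1 cells than on any array of SW13+vector cells, ANXA1 sits lower, and S100A11 stays under the band on all 12 arrays.

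S100A2, an S100 protein best known from epithelial cells such as keratinocytes, was near the array median in SW13+vector cells and far above it in SW13+BRG1 cells. With mock treatment it read 19.2, 15.3 and 24.99 in SW13+vector cells, and 20.3, 24.5 and 29.4 after UV. In SW13+BRG1 cells they were 316, 348 and 462 with mock treatment and 532, 545 and 586 after UV. No array lay between 29.4 and 316, the highest SW13+vector and the lowest SW13+BRG1 signal. The means were 19.8 ± 4.86 and 375 ± 76.6 in mock-treated cells (SD, n = 3), a log2 difference of 4.25 (SE 0.24) or 19.0-fold, and the log2 difference after UV was 4.50 (SE 0.24). The SW13+vector signals lie near the array medians, and with 16 added to every signal before the logarithm the differences were 3.44 and 3.81. In bulk RNA, more cells that express a gene and more RNA in each cell cannot be told apart.

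S100A16, a widely expressed S100 protein, had signals of 60.9, 102 and 46.5 in mock-treated and 86.7, 79.9 and 79.9 in UV-treated SW13+vector cells. In SW13+BRG1 cells they were 1873, 1767 and 2021 and, after UV, 2619, 2711 and 2981. The groups of the lines were far apart, with a log2 difference of 4.83 (SE 0.22), or 28.5-fold, in mock-treated cells and 5.07 (SE 0.22) after UV.

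S100A10, the partner of ANXA2 in a tetramer at the plasma membrane, no longer binds calcium itself. Its signals were 71.0, 47.2 and 26.5 in mock-treated and 54.7, 65.8 and 44.6 in UV-treated SW13+vector cells, against 766, 826 and 945 and 1312, 1372 and 1414 in SW13+BRG1 cells. The log2 difference was 4.24 (SE 0.28), or 18.9-fold, in mock-treated cells and 4.65 (SE 0.28) after UV. A second and much dimmer probe set of S100A10, which was not tested, read 4.03, 3.73 and 2.38 in mock-treated SW13+vector and 23.0, 31.0 and 19.5 in mock-treated SW13+BRG1 cells, also without overlap.

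ANXA10, an annexin known from gastric mucosa with degenerate calcium sites, was at the bottom of the array in SW13+vector cells. Its signals there were 1.76, 3.14 and 2.50 with mock treatment and 4.79, 1.91 and 1.61 after UV, between the 7.3rd and the 19.1st percentile of the arrays. In SW13+BRG1 cells they were 423, 423 and 382 and, after UV, 520.5, 624 and 684. The log2 difference was 7.41 (SE 0.42) in mock-treated cells and 7.95 (SE 0.42) after UV. The arrays of the lines did not overlap, but the size of the difference depends on how such low signals are treated, since with 16 added to every signal before the logarithm the log2 differences were 4.53 and 5.05.

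ANXA1, or lipocortin 1, an annexin that restrains inflammation, went the other way. Its signals were 10642, 10870.5 and 11099 in mock-treated SW13+vector cells and 3429, 3828 and 3659 in mock-treated SW13+BRG1 cells. After UV they were 13842, 12774 and 13482 and 4713, 4715 and 4451. The log2 difference was -1.58 (SE 0.07), or 2.99-fold lower, in mock-treated cells and -1.53 (SE 0.07) after UV, with tight arrays in each group. A dimmer probe set of ANXA1 read 118, 137 and 76.6 in SW13+vector and 40.8, 12.2 and 5.78 in SW13+BRG1 cells with mock treatment, with a log2 difference of -2.91 (SE 0.76). It reached the 3 arrays that the filter asks for only with those of SW13+vector cells, so its values are given without a test.

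ANXA2, which organizes membrane domains and, with S100A10, binds plasminogen and its activator, was among the brightest probe sets in every group. It read 5815, 6468 and 6625 in mock-treated SW13+vector cells and 6324, 6529 and 7658 in mock-treated SW13+BRG1 cells. These ranges overlapped, and the log2 difference was 0.11 (SE 0.10), with 0.15 (SE 0.10) after UV. S100A10 thus differed 18.9-fold between the lines while its binding partner differed 1.08-fold. The probe sets of ANXA2 can share signal with its pseudogenes, of which ANXA2P2 is bright on its own probe set, with means of 1760 and 1960 in mock-treated cells of the lines, so part of the ANXA2 signal is uncertain.

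The remaining S100 members did not set the lines apart. S100A13, which takes part in the release of FGF1 and IL1A, read 60.4, 65.8 and 107 in mock-treated SW13+vector and 116, 65.6 and 125 in mock-treated SW13+BRG1 cells, and these overlapped. After UV the values were 61.1, 45.3 and 106 and 93.4, 136 and 149.8, with a log2 difference of 0.90 (SE 0.36) and arrays that still overlapped. A second, dimmer probe set of S100A13 showed log2 differences of -0.06 (SE 0.56) with mock treatment and -0.55 (SE 0.56) after UV, also with overlap. S100A4, a protein linked to cell motility that binds non-muscle myosin, ranged from 3.02 to 36.8 over the 12 arrays with no group apart from the others. Its log2 difference between the lines was 0.50 (SE 0.82) with mock treatment and 1.78 (SE 0.82) after UV, with arrays that overlapped. S100A6, or calcyclin, ranged from 0.804 to 45.3 on its brighter probe set and from 0.904 to 11.1 on the other. S100A11, the partner of ANXA1, ranged from 1.04 to 11.1 and lay below the array median on every array. A difference between the groups was not detectable for S100A6 and S100A11 at these signals.

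Over the whole families, 31 genes have a probe set of their own (20 S100 genes and 11 annexins), and 18 of them were tested, 9 of each family. In mock-treated cells 7 of the 18 were called higher in SW13+BRG1 cells and 1 lower at an adjusted p under 0.05 and a fold over 2 (limma, Benjamini-Hochberg adjustment over all probe sets tested), against 9.06% of all tested genes called higher and 5.11% lower. After UV the same counts were 7 and 1, against 9.56% and 6.62%. Of these calls 5 are members, which were picked with their levels known, so the count of the families is not independent of the choice. Among the genes called higher, ANXA10 and ANXA3 would not have passed the filter without the arrays of SW13+BRG1 cells. In both treatments the signals of the lines did not overlap for 4 of the 8 tested members that were higher and 1 that was lower, patterns shown by 21.6% and 19.7% of tested genes with mock treatment and by 23% and 22.4% after UV. The median log2 difference of the 18 genes was 0.44 in mock-treated cells and 0.86 after UV, and over all tested genes the medians were 0.0015 and -0.017.

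Of the 6 tested annexins that are not members, ANXA3, ANXA4 and ANXA6 were called higher in SW13+BRG1 cells with mock treatment and with UV. ANXA3 read 9.12, 1.52 and 11.8 in mock-treated SW13+vector cells and 194, 200.2 and 202 in mock-treated SW13+BRG1 cells, a log2 difference of 5.18 (SE 0.64). These SW13+vector signals lay below the array medians, at percentiles from 5.28 to 37.2, so the size of this difference is not well defined, as for ANXA10. ANXA3 reached the 3 arrays that the filter asks for only with those of SW13+BRG1 cells, so its call is not an independent test. For ANXA4, an annexin of secretory epithelia, the signals were 419, 404 and 236 against 956, 878 and 841, a log2 difference of 1.38 (SE 0.20, limma adjusted p = 0.000215). ANXA6, an annexin of endosomes and the plasma membrane, read 124, 129 and 263 against 491, 476 and 624, a log2 difference of 1.71 (SE 0.29, limma adjusted p = 0.000759). The groups of these 3 annexins did not overlap, and a second, dimmer probe set of ANXA6 showed a log2 difference of -0.46. By their brightest probe sets the other 3 annexins tested, ANXA5, ANXA7 and ANXA11, and all 4 tested S100 genes that are not members (S100A1, S100A7A, S100A8 and S100A14) were not called between the lines with either treatment. A dim probe set of ANXA11 read 4.08, 16.8 and 7.12 in mock-treated SW13+vector and 54.3, 59.4 and 38.5 in mock-treated SW13+BRG1 cells. The log2 difference was 2.66 (SE 0.61), and 1.48 (SE 0.61) after UV. This probe set passed the filter only through the arrays of SW13+BRG1 cells, so its values are given without a test. A further 9 S100 genes were too dim to test.

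**Figure D2:**
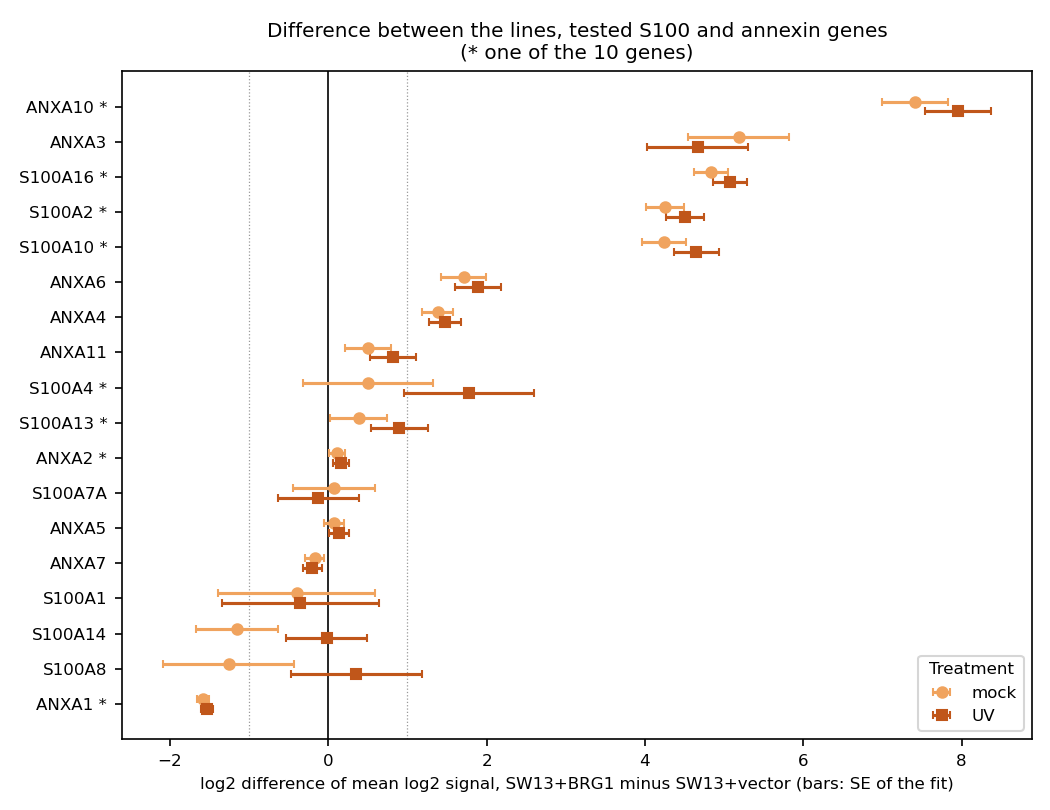
Log2 difference of mean log2 signals, SW13+BRG1 minus SW13+vector, for the 18 tested S100 and annexin genes, in mock-treated cells (circles) and after UV (squares), with bars for the SE of the fit, dotted lines at 2-fold, and a star beside the members. ANXA10, ANXA3, S100A16, S100A2 and S100A10 lie above 4 in both treatments, ANXA6 and ANXA4 between 1 and 2, and ANXA1 is the only gene clearly under -1 in both. S100A4 lies at 1.78 after UV, with a wide bar.

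RefSeq places 16 S100 genes on chromosome 1 in 2 blocks, and each gene is compared here between the lines only, since probe sets of different genes differ in brightness. In the smaller block S100A10 lies next to S100A11, whose means were 4.16 in SW13+vector and 6.18 in SW13+BRG1 cells with mock treatment, too dim for a difference to be detectable. In the larger block S100A2 and S100A16 are adjacent, with S100A3 and S100A4 on the one side and S100A14 and S100A13 on the other. The means of S100A3 were 5.32 and 4.67 in the same order, likewise too dim. S100A14 had means of 31.0 and 13.9, a log2 difference of -1.15 (SE 0.52, limma adjusted p = 0.147), and was not called. The genes next to the blocks were THEM4, PGLYRP4 and CHTOP on the array, of which 2 were tested, and 0 of these were called between the lines with mock treatment. CHTOP read lower in SW13+BRG1 cells, with a log2 difference of -0.52 (SE 0.12, limma adjusted p = 0.00549) that stayed short of 2-fold.

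**Figure D3:**
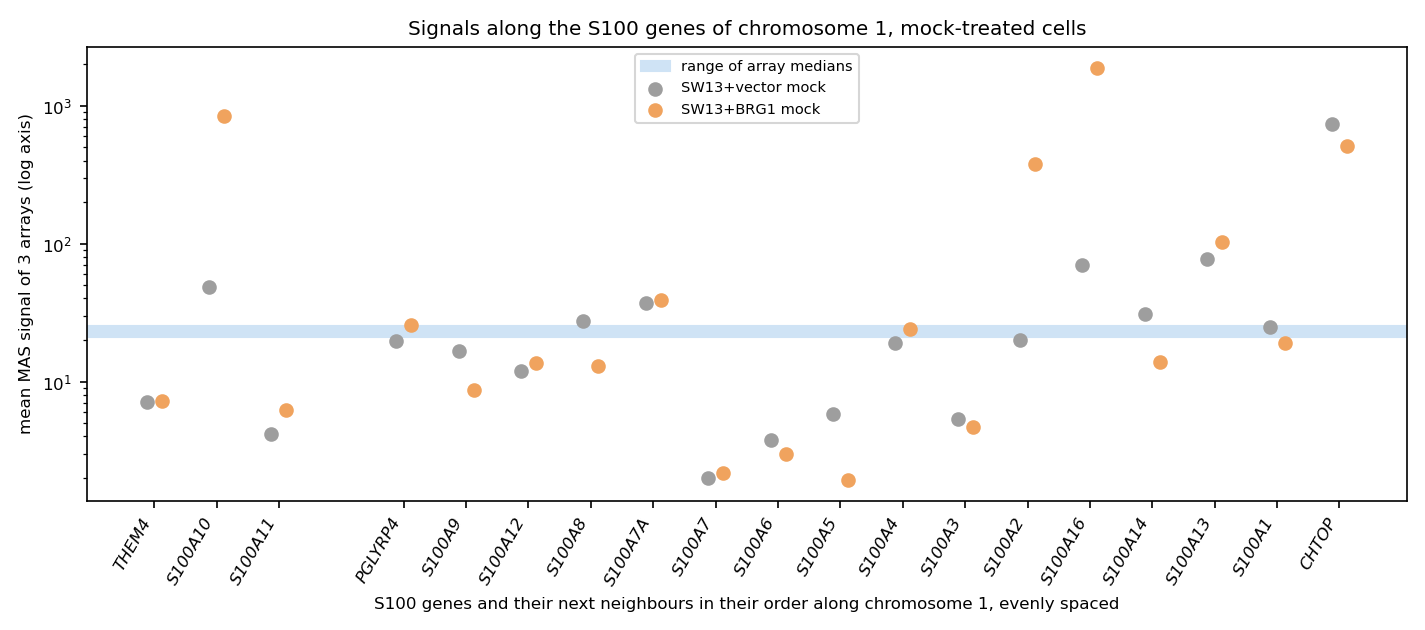
Mean MAS signal of 3 arrays on a logarithmic axis, in mock-treated SW13+vector (grey) and SW13+BRG1 cells (orange), for the 16 S100 genes of chromosome 1 and their next neighbours in gene order, with a gap between the blocks. Within a gene, the orange point stands far above the grey one at S100A10, S100A2 and S100A16, while at S100A11 and S100A3 both points lie below the band of array medians.

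UV changed no tested member past both thresholds. In SW13+BRG1 cells 0 of the 8 tested members were called at a fold over 2, against 0.53% of tested genes called higher and 6.29% lower, and 5 had an unadjusted p under 0.05 in limma, against 31% of tested genes. All 8 had log2 changes above 0, with a median of 0.47, where the median of all tested genes was 0.032. For 6 of them (S100A2, S100A10, S100A16, ANXA1, ANXA2 and ANXA10) every UV array was above every mock array, a pattern that 17.3% of tested genes show in this comparison. In SW13+vector cells 0 of the 8 were called, against 0.53% higher and 3.95% lower, and 2 had an unadjusted p under 0.05, against 27.5%. There 6 of the 8 had changes above 0 and the median change was 0.29, where the median of all tested genes was 0.027, and for 2 of them, ANXA1 and ANXA2, the UV arrays lay above the mock arrays, as for 15% of tested genes. ANXA10, one of the 6, is at the low end of the arrays in that line, where a UV change is not measurable. The changes below 0 there were those of S100A13 (-0.18) and of S100A4, which was dim and scattered (-1.12, SE 0.82, limma adjusted p = 0.473). On the dimmer probe set of S100A13 the change in that line was 0.96 (SE 0.56, limma adjusted p = 0.339).

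After UV the bright members ANXA1, in both lines, and ANXA2, in SW13+BRG1 cells, passed the adjusted p at less than 2-fold. For ANXA1 the log2 change was 0.30 (SE 0.07, limma adjusted p = 0.0221) in SW13+vector cells and 0.35 (SE 0.07, limma adjusted p = 0.00639) in SW13+BRG1 cells. On the dimmer probe set of ANXA1 the estimates were below 0, at -0.83 (SE 0.76, limma adjusted p = 0.580) and -1.32 (SE 0.76, limma adjusted p = 0.310). In SW13+BRG1 cells it read 40.8, 12.2 and 5.78 with mock treatment and 8.01, 13.1 and 1.77 after UV. Most of these lie below the array medians, so no direction is taken from them. For ANXA2 the log2 change was 0.34 (SE 0.10, limma adjusted p = 0.0518) and 0.38 (SE 0.10, limma adjusted p = 0.0232). With the experiment number as a block ANXA2 passed in SW13+vector cells too (limma adjusted p = 0.00201). At this threshold, with no limit on the fold, 4.6% of tested genes rose in the SW13+vector line, compared with 7.12% in the SW13+BRG1 line. Bright probe sets in general moved in the same way. Among the 10% of tested probe sets that were brightest in the line, the median log2 change after UV was 0.26 in SW13+vector and 0.32 in SW13+BRG1 cells, and after quantile normalization of the arrays the change of ANXA1 was -0.0030 and -0.070 and that of ANXA2 was 0.0043 and -0.060 in these lines. ANXA5, a phosphatidylserine-binding annexin, rose by 0.46 (SE 0.12, limma adjusted p = 0.0328) and 0.53 (SE 0.12, limma adjusted p = 0.0115).

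The 4 genes that were bright in SW13+BRG1 cells also read higher there after UV, though not past the threshold. S100A10 went from a mean of 846 ± 91.1 to 1366 ± 51.0, a log2 change of 0.70 (SE 0.28, limma adjusted p = 0.127). S100A2 went from 375 ± 76.6 to 554 ± 28.4 (log2 change 0.58, SE 0.24, limma adjusted p = 0.136, and 0.0389 with the experiment number as a block). S100A16 went from 1887 ± 127 to 2771 ± 188 (0.55, SE 0.22, limma adjusted p = 0.116), and ANXA10 from 409 ± 23.8 to 609.5 ± 82.7 (0.57, SE 0.42, limma adjusted p = 0.450). The SE comes from all 12 arrays, and the SW13+vector arrays, where these genes are dim, mostly scattered more on the log2 scale. For S100A16 the SD of log2 signals was 0.57 in mock-treated SW13+vector and 0.10 in mock-treated SW13+BRG1 cells, and for S100A10 it was 0.72 and 0.15. The SDs of S100A2 with mock treatment were closer, at 0.35 and 0.28. After UV S100A16 went the other way, with 0.068 in SW13+vector and 0.097 in SW13+BRG1 cells. In a fit of the SW13+BRG1 arrays alone the adjusted p-values of limma were 0.00684 for S100A10, 0.0103 for S100A16, 0.0300 for ANXA10 and 0.0457 for S100A2, with the same changes. The share of all tested genes that passed in that fit was not counted. After quantile normalization of all arrays the changes were 0.55, 0.24, 0.61 and 0.66 in that order of genes, with limma adjusted p-values of 0.16 or more. By their brightness in SW13+BRG1 cells S100A10 and S100A16 belong to the brightest 10%, with its median change of 0.32, and S100A2 and ANXA10 to the next 10%, with a median of 0.036. The dim second probe set of S100A10 did not follow, with 23.0, 31.0 and 19.5 in mock-treated and 17.6, 15.6 and 19.0 in UV-treated SW13+BRG1 cells.

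**Figure D4:**
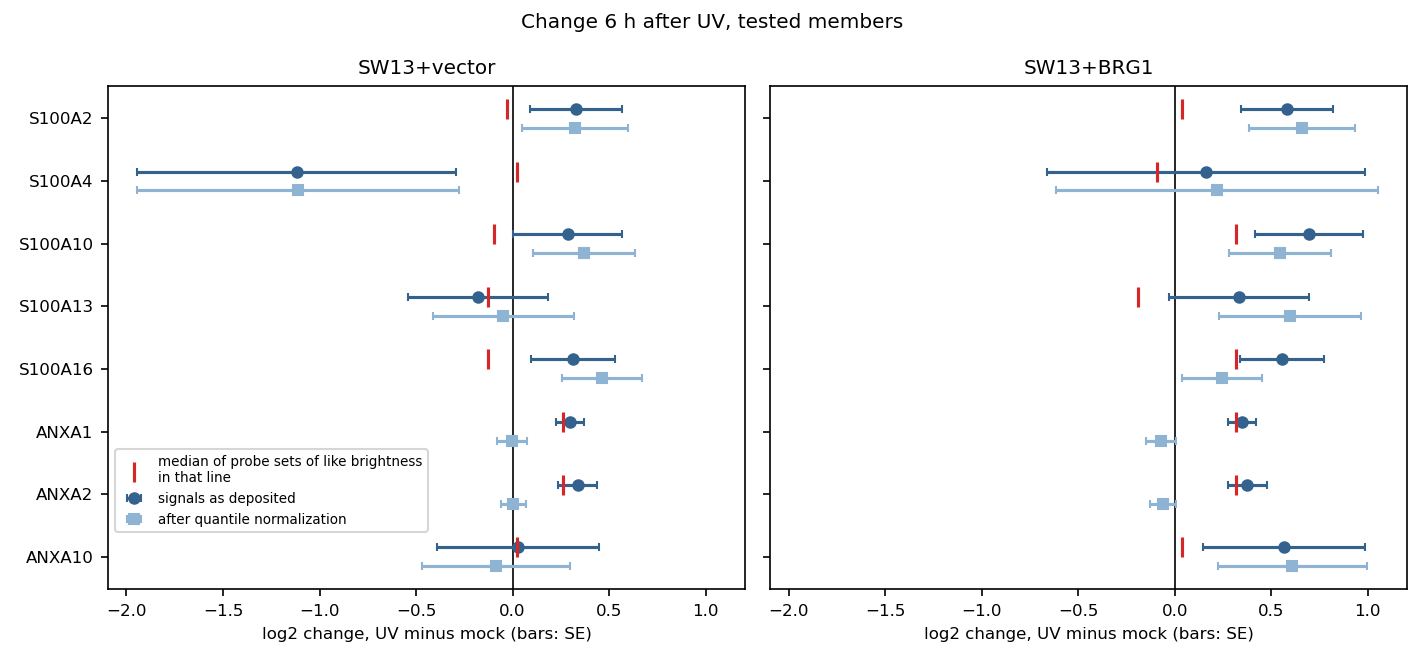
Log2 change from mock to UV for the 8 tested members in SW13+vector (left) and SW13+BRG1 cells (right), from the deposited signals (circles) and after quantile normalization (squares), with bars for the SE, and a red tick at the median of probe sets of like brightness in that line. ANXA1 and ANXA2 sit beside their red ticks (0.26 and 0.32) and lie near 0 after quantile normalization, while with the deposited signals of SW13+BRG1 cells S100A10 and S100A16 (0.70 and 0.55) lie to the right of their ticks at 0.32 and S100A2 and ANXA10 (0.58 and 0.57) to the right of theirs at 0.036.

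The UV changes were not shown to differ between the lines. The difference of the log2 changes, SW13+BRG1 minus SW13+vector, was called for 0 of the 8 tested members, against 0.0653% of tested genes, and 0 had an unadjusted p under 0.05, against 5.48%. For S100A2 it was 0.25 (95% confidence interval -0.48 to 0.98), for S100A10 0.41 (-0.45 to 1.27) and for S100A16 0.24 (-0.42 to 0.90). For ANXA10 no difference is given, since its signals in SW13+vector cells are too low for a UV change. The upper bounds are 0.90 or more on the log2 scale, so the intervals hold 0 as well as differences of that size. For ANXA1 the interval was narrow, from -0.17 to 0.27.

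Of 30 partners of S100 proteins and annexins listed, 25 were tested, and 6 (24%) were called higher in mock-treated SW13+BRG1 than SW13+vector cells and 0 lower, where 9.06% and 5.11% of all tested genes were. This list and those that follow were chosen with earlier results of these data known, so their counts are not independent of the choice. The largest changes were those of DLC1, which binds S100A10 (log2 difference 6.25, SE 0.20), MYOF, a ferlin of membrane fusion (5.75, SE 0.22), PLAT, the tissue plasminogen activator (4.66, SE 1.16), and AHNAK, a giant scaffold bound by the ANXA2 and S100A10 complex (2.09, SE 0.14). How far the sizes of these differences depend on low signals was not tested. CACYBP, which binds S100A6, read lower, with a log2 difference of -0.92 (SE 0.09, limma adjusted p = 9.85e-06) that stayed short of 2-fold. After UV 7 partners (28%) were called higher in SW13+BRG1 cells and 0 lower, where 9.56% and 6.62% of all tested genes were, and the largest differences were those of DLC1 (6.00), MYOF (5.80), PLAT (4.94) and DYSF, another ferlin (2.16). In response to UV, 1 partner (4%) was called lower in SW13+BRG1 cells, where 6.29% of all tested genes were. It was S100PBP, with a log2 change of -1.45 (SE 0.20, limma adjusted p = 0.000504). In SW13+vector cells 0 partners were called lower, where 3.95% of all tested genes were. The share of partners called lower was thus no larger than that of all tested genes. Of 22 tested EF-hand proteins outside the S100 family, 1 was called higher in mock-treated SW13+BRG1 cells, GCA (log2 difference 1.83), and 1 lower, EFHD1 (-3.50), together 9.09% of the list. Of all tested genes, 9.06% were called higher and 5.11% lower. With UV 3 were called higher, GCA (2.08), NUCB1 (1.38) and CETN2 (1.14), and 1 lower, EFHD1 (-3.44), together 18.2% of the list, against 9.56% and 6.62% of all tested genes. The receptors listed were mostly dim, with 3 of 7 tested, and AGER and FPR2, receptors of S100 proteins and of ANXA1, were not among them. ERBB4, a receptor tyrosine kinase that binds neuregulins, was called lower in SW13+BRG1 cells with mock treatment (log2 difference -1.51, SE 0.21, limma adjusted p = 0.000182) and with UV (-1.96), and lower after UV in SW13+vector (-1.12, limma adjusted p = 0.00569) and SW13+BRG1 cells (-1.56, limma adjusted p = 0.000418). Of the 7 S100 fused-type genes listed, such as FLG, 0 were tested.

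By pattern over the 12 arrays, the genes most like S100A2 among 8828 tested genes with a mean signal above the 75th percentile in some group were VIM, SRPX, TPD52L1, TPM1 and STAT3. Pearson's r of their log2 signals with S100A2 was 0.995 to 0.999. Among the members r with S100A2 was 0.985 for S100A16, 0.983 for ANXA10, 0.980 for S100A10 and -0.945 for ANXA1. The genes most like ANXA1 were IMMP2L, SFTA1P, TFPI2, PIR and MRPS28, with r from 0.993 to 0.995. The points share the split between the lines, and the values are a description without a test.

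Some facts of the whole series touch these results. Of 9 probe sets for SMARCA4, the gene of BRG1, the mean was higher in SW13+BRG1 cells on 2 with mock treatment and on 3 with UV, and the probe set of SMARCA4 with the highest mean read lower there, at 314, 383 and 920.1 in mock-treated SW13+vector and 143, 161 and 336 in mock-treated SW13+BRG1 cells (log2 difference -1.28, SE 0.42, limma adjusted p = 0.0459, called). Another was lower without overlap in both treatments. After UV the probe set with the highest mean was not called (log2 difference -1.22, limma adjusted p = 0.0511). A different probe set was called higher in SW13+BRG1 cells after UV, without overlap (log2 difference 2.20, SE 0.45, limma adjusted p = 0.00284). The signals of this gene thus differ between its probe sets and do not follow the labels as a whole. SW13+BRG1 means the arrays labelled so wherever a direction is given. The study checked BRG1 protein in the lines by Western blot, and whether these probe sets detect the plasmid's transcript was not tested. Adrenal cortex markers were dim, with NR5A1, STAR and CYP11A1 at group means of 2.77 to 22.3 and 2 of 9 markers tested, 0 of them called between the lines, so the labelled tissue is not visible in these markers. The mesenchymal markers moved with the members between the lines, in part, since 2 of 6 (COL1A1 and VIM) were called higher in mock-treated SW13+BRG1 cells, COL3A1 was not called (means of 1467 and 1327), and 3 (COL1A2, PDGFRA and PDGFRB) were too dim to test. VIM alone went from a mean of 288 to 7952, and the summed signal of the list was 1527 to 2355 on mock-treated SW13+vector and 8235 to 11900 on mock-treated SW13+BRG1 arrays. Their part in the members' results was not tested. The keratinocyte keratins KRT5 and KRT14 had group means of 3.16 to 12.8, whereas KRT10 had 1248 to 2603, was not called between the lines and passed the adjusted p after UV at under 2-fold in both (log2 changes 0.83 and 0.70), and in the blood list PTPRC was called lower in SW13+BRG1 cells with both treatments and in the endothelial list TEK with UV.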

How the data were processed

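RNA of SW13+vector and SW13+BRG1 cells had been hybridized to 12 Affymetrix U133 Plus 2.0 arrays. Per the study's methods, the authors ran MAS with its defaults and scaled arrays to a target mean of 125, and the deposited table gives these linear signal intensities, 1 per probe set and array. No MAS version is given in the sources used here. Such scaling does not remove differences between arrays that depend on brightness. Groups and experiment numbers were taken from the sample labels, in which a number names an experiment. Arrays of different groups with the same number correlated at 0.0152 to 0.293 in their deviations from group means (over 0.1 in 11 of 18 pairs), the others at -0.223 to 0.137, so the block by experiment is given where it changes a call.

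Log2 signals were used without further normalization. Of 54675 probe sets, 41097 are annotated with a single gene, 1801 with several and 11777 with none. Control probe sets (62) were removed, and 32622 others, standing for 13784 genes, had a signal at or above their array's median on at least 3 arrays. They entered 1 limma model (3.58.1, in R 4.3.3) of the 4 group means, whose prior variance was allowed to depend on signal. Benjamini-Hochberg adjustment covered all 32622. Calls were made at an adjusted p below 0.05 together with a change of more than 2-fold, or at the adjusted p alone for differences between UV changes. The model was tested on simulated data. Each gene is represented by its single-gene probe set of highest mean log2 signal. ANXA2R, a receptor, was not counted as an annexin.

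The members and all lists were chosen with earlier results of these data known. Genes named are the members, other family genes that were called, and per further list and comparison at most 4 called genes with the largest change. CACYBP, ANXA5 and other genes named outside this rule were chosen after their values were seen. Alternatives covered the filter (none, or stricter), quantile normalization, centring on a shared median, adding 16 before the logarithm, a block for experiment number, an untrended prior, models limited to the groups compared, the methods' t-test, averaging a gene's probe sets, and omission of single arrays. Promoters and gene order came from RefSeq, build GRCh38.p14. The 3 arrays in each group limit the precision.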

Additional observations from a re-analysis of the deposited data

How the results depend on the processing

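The direction of the difference between the lines for S100A2, S100A10, S100A16, ANXA10 and ANXA1 was the same in every alternative run, and 0 members were called after UV in any of them at a fold over 2. In many of them that direction was fixed in advance. The arrays of the lines did not overlap for these genes, so adding 16 or omitting an array cannot turn it. The filter, the block and the prior leave the log2 difference unchanged. What moved was the number of members past the adjusted p at any fold after UV, 1 in SW13+vector and 2 in SW13+BRG1 cells as reported. In SW13+vector cells it was 2 with the stricter filter, with log2 of the signal plus 16, with the experiment number as a block, and, in a fit added after the data were seen, without the arrays of experiment 3. It was 0 with quantile normalization, a common median, no trend in the prior, the compared groups only, the methods' t-test after adjustment, and the mean over probe sets. In SW13+BRG1 cells it was 0 with quantile normalization, no trend, the adjusted t-test of the methods and the mean over probe sets, 1 with a common median, 4 with plus 16, 5 without experiment 3 and 6 with the compared groups only. Leaving out 1 array at a time gave 0 to 2 in SW13+vector cells, with 0 without mock replicate 1 or UV replicate 1 or 3 of that line and 2 without its UV replicate 2 or SW13+BRG1 mock replicate 3. In SW13+BRG1 cells it gave 1 to 4, with 4 without SW13+vector mock replicate 3 and 1 without mock replicate 1 or 2 or any UV replicate of SW13+BRG1. The share of all tested genes past the adjusted p at any fold was not counted under the alternatives, so these counts are not results about the members. Over all 32622 tested probe sets the block raised UV calls over 2-fold in SW13+BRG1 cells, from 183 higher and 1895 lower to 274 and 2343. The methods' t-test called 2 family genes lower in mock-treated cells, unadjusted and adjusted, and after adjustment 2 higher in mock-treated and 4 higher in UV-treated cells. Without 1 array the UV-treated count of higher family genes was 7 to 9.

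With quantile normalization UV changes turned for ANXA1 (-0.0030) and ANXA10 (-0.086) in SW13+vector cells and for ANXA1 (-0.070) and ANXA2 (-0.060) in SW13+BRG1 cells, and the difference of the UV changes between the lines turned for ANXA1 (-0.067), ANXA2 (-0.065) and S100A16 (-0.22). With the mean over probe sets they turned for ANXA1 (-0.27) and S100A13 (0.39) in SW13+vector cells, for ANXA1 (-0.48) in SW13+BRG1 cells, and for the difference of ANXA1 (-0.22) and ANXA2 (-0.18). Without 1 array the UV change in SW13+vector cells ranged from -0.46 to 0.33 for ANXA10, -0.091 to 0.62 for S100A10 and -0.52 to 0.10 for S100A13, in SW13+BRG1 cells from -0.16 to 0.49 for S100A4, and the difference of the UV changes from -0.070 to 0.49 for S100A16 and -0.036 to 0.12 for ANXA2. The mean over probe sets weighs each probe set of a gene equally. The dimmer probe set of ANXA1 had UV changes of -0.83 in SW13+vector and -1.32 in SW13+BRG1 cells. That of S100A13 had 0.96 in SW13+vector cells, so both were opposite in sign to the brightest probe set there. The cause of the other changes was not tested. Pairing the arrays through the experiment number as a block changed the calls of ANXA2 in SW13+vector cells (limma adjusted p of 0.00201) and S100A2 in SW13+BRG1 cells (0.0389) at any fold, and no other call of the members. The compared groups alone and the methods' t-test were not run for the difference of the UV changes. Signals near the low end of the arrays limit what could be seen for S100A4, S100A6 and S100A11.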
